A study of Mus musculus with 4 samples.

Results

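Glycine is broken down in liver mitochondria by the glycine cleavage system, and its carbon enters the pool of folate-bound one-carbon units that serves nucleotide synthesis and methylation. The 10 genes described here, of 55487 gene identifiers in the count tables, encode this system and the enzymes directly around it, and they were chosen as a named list of enzymes and matched by gene symbol. They are Gldc, Amt, Gcsh and Dld, the 4 proteins of the glycine cleavage system; Shmt1 and Shmt2, which interconvert serine and glycine; Mthfd1 and Aldh1l1, which convert and oxidise folate-bound carbon in the cytosol; and Gnmt and Sardh, which make sarcosine from glycine and return it to glycine. All 10 passed the filter on low counts, with 939 to 42899 reads per gene and library.

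The samples were livers of female mice on the FVB background, aged 11 weeks and kept on chow, in 2 groups of 2 mice. The genotype label of 2 mice is PA, and the growth protocol names hypomorphic Pcca-/- mice carrying A138T beside the WT mice. The genotype label of the other 2 mice is WT (wild type). The labels do not name the promoter that drives A138T. PolyA RNA from frozen tissue was sequenced. The title of the series names histone acylation and the response of transcription to disturbed metabolism as its subject.

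Pcca encodes the alpha subunit of propionyl-CoA carboxylase, whose loss causes propionic acidemia. That disease was long called ketotic hyperglycinemia, because glycine accumulates in blood, so the levels of the glycine-degrading enzymes are of interest in it. In the cleavage reaction the P protein (Gldc) decarboxylates glycine, the lipoylated H protein (Gcsh) carries the remaining aminomethyl group, the T protein (Amt) passes its carbon to tetrahydrofolate, and the L protein (Dld) reoxidises the lipoyl arm. Tissue with fewer cells of a type and tissue with less RNA per cell cannot be told apart in bulk RNA.

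Gene counts summed to 25990553 and 30110400 in PA replicates 1 and 2 and to 29627033 and 25575016 in WT replicates 1 and 2. Levels are given as CPM, read counts divided by library sizes scaled by the TMM method, unless TPM is named. Pcca itself was at 34.2 and 47.4 CPM in PA livers, against 60.3 and 58.9 CPM in WT livers (log2 fold change -0.55 ± 0.22 SE, edgeR adjusted p = 0.398), and a gene-level count does not separate a mutant from a normal transcript. Whether reads of the A138T allele were counted at the mouse Pcca gene at all is not known from the labels or the files. Hepatocyte markers were abundant in every library, with Alb at 120638 and 147200 CPM in PA and 130577 and 149441 CPM in WT, and 6 kidney tubule markers summed to at most 0.785 CPM. The share of counts on the mitochondrial genome was 13.63 and 8.98% in PA, against 6.9 and 7.38% in WT. Red blood cell markers summed to 11.9 and 16.8 CPM in PA and to 88.5 and 47.5 CPM in WT, with 5 of 5 tested at lower values and 2 called by edgeR, and Kupffer cell markers to 311 and 443 CPM in PA and to 687 and 605 CPM in WT. PA replicate 1 stood apart from the other 3 libraries in its mitochondrial share and in its share of reads mapped to several places (13.53% against 9.11 to 9.42%). The part of any of these in the values below was not tested.

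The sequences upstream of the 3 genes specific to the glycine cleavage system are shown because Gldc and Amt varied together between mice of 1 group, while Gcsh did not vary with them. The sequences are the 250 bases before the RefSeq start on the gene's strand (GRCm38.p6), at chr19:30175442-30175691 on the minus strand for Gldc, chr9:108296655-108296904 on the plus strand for Amt and chr8:116993499-116993748 on the minus strand for Gcsh. Capitals mark a CCAAT box (CCAAT) or a GC box (GGGCGG), read on either strand.
Gldc: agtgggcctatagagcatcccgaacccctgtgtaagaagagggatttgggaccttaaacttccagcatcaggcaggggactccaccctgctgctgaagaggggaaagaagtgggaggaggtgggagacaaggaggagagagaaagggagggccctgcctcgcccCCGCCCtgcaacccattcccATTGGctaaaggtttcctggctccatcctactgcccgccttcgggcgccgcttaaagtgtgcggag
Amt: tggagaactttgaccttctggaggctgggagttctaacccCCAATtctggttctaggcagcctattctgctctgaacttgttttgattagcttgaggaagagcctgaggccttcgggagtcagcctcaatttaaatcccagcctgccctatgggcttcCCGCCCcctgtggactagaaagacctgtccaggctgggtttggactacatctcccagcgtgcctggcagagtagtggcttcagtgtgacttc
Gcsh: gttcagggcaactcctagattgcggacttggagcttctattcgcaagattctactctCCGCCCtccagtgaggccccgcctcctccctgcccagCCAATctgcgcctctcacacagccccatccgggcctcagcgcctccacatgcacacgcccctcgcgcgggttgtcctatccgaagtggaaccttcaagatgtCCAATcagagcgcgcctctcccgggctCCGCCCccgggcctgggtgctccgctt

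The windows of Gldc and Amt each held 1 CCAAT box and 1 GC box, and the window of Gcsh held 2 of each. All 10 genes had a window in the RefSeq table. A CCAAT box was found in 8 of them, all but Shmt2 and Sardh, and in 33.8% of all 32851 promoter windows of the same length. A GC box was found in 6 of 10 and in 32.7% of all windows. No window of the 10 held the letters TATAAA, found in 12.4% of all windows, or TGACGTCA, found in 1.55%. No CCAAT box shared bases with a GC box in these windows. The letters describe the reference strain, not the FVB mice. Any part of them in the levels of these genes was not tested.

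None of the 10 genes passed the test between PA and WT livers. By edgeR's quasi-likelihood test 0 of 10 were called at an adjusted p of 0.05, where 0.812% of all 14411 tested genes were called (0.264% higher and 0.548% lower in PA). Only Gldc had an unadjusted p under 0.05, as did 11.8% of all tested genes (5.88% higher and 5.93% lower). DESeq2, which called 3.07% of all genes, and limma-voom, which called 0.604%, also called 0 of 10. Fold changes were positive for 8 genes and negative for Gcsh and Shmt1, and their median was 0.24 on the log2 scale, against 0.0 for all tested genes. Both PA libraries lay above both WT libraries for 5 genes (Gldc, Dld, Shmt2, Aldh1l1 and Gnmt), as they did for 21.3% of all tested genes, and for none did both lie below, as in 21.9%. With 2 mice per group, a gene that missed the threshold is not shown to have equal levels.

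**Figure D1:**
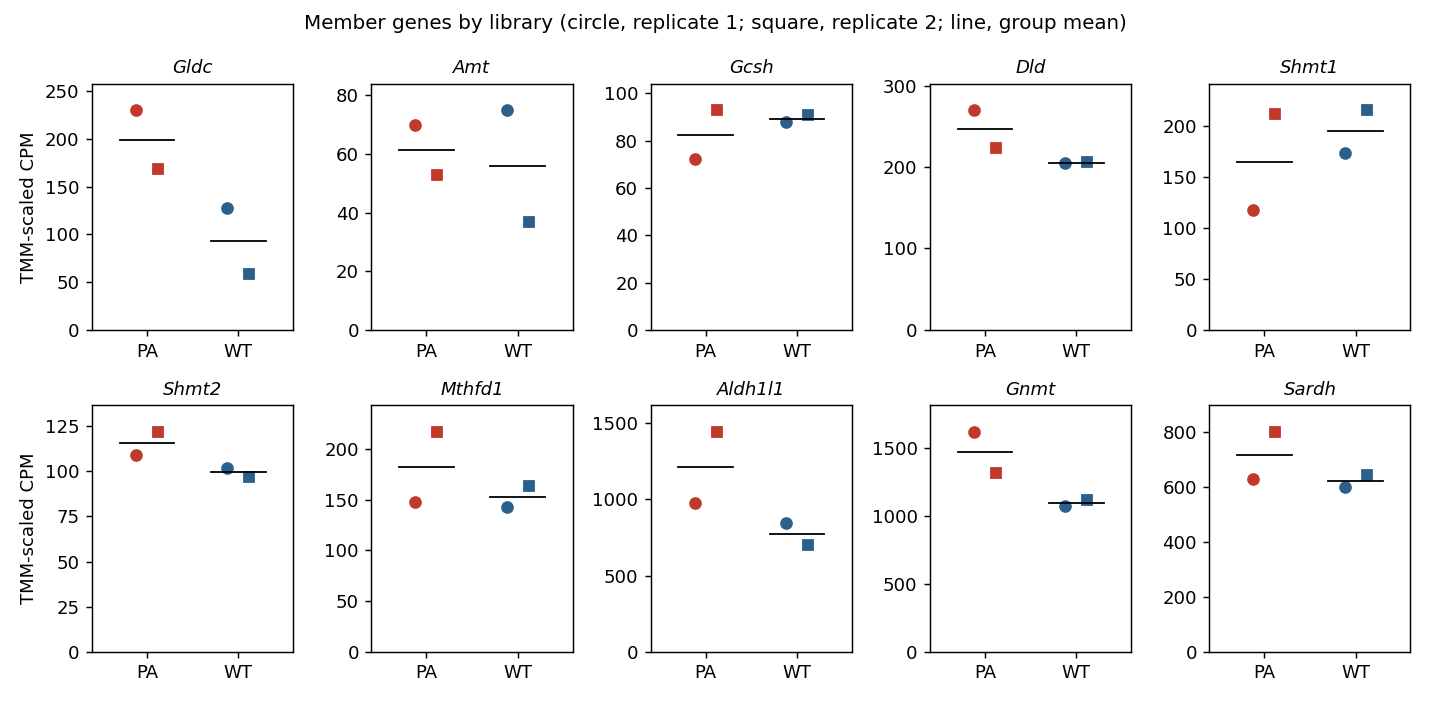
TMM-scaled CPM of the 10 genes in each library (PA left in red, WT right in blue; circle, replicate 1; square, replicate 2; line, group mean). Both PA points lie above both WT points for Gldc, Dld, Shmt2, Aldh1l1 and Gnmt, and the WT points of Gldc and Amt lie far apart.

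Gldc, which encodes the glycine decarboxylase that starts the cleavage reaction, had the largest fold change of the 10. It lies on chromosome 19, 30098447 to 30175429, minus strand (GRCm38). It was at 230 and 168 CPM in PA replicates 1 and 2, against 128 and 58.0 CPM in WT replicates 1 and 2. The PA libraries were the 2 highest and WT replicate 2 was far below the other 3. The log2 fold change came to 1.10 ± 0.39 (SE; edgeR adjusted p = 0.322), or 2.14-fold, and the group means were 199 ± 44.2 CPM in PA and 93.0 ± 49.6 CPM in WT (SD, n = 2 each). The size depended on the WT mouse it was set against: the log2 fold change was 0.64 with WT replicate 2 left out and 1.77 with WT replicate 1 left out. Gldc was called only where no filter on low counts was applied (edgeR adjusted p = 0.00306 in that fit, over a range of 0.0539 to 0.955 in the other settings tried, DESeq2 and limma-voom among them), a fit that called 3.7% of its genes.

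Amt (chromosome 9, 108296853 to 108302302, plus strand) encodes the aminomethyltransferase of the system. It was at 69.9 and 52.9 CPM in PA livers, against 75.0 and 36.9 CPM in WT livers. The groups overlapped, and the 2 WT mice held both the highest and the lowest value. PA over WT gave a log2 fold change of 0.13 ± 0.34 (SE; edgeR adjusted p = 0.929), and leaving out WT replicate 2 gave -0.28, leaving out WT replicate 1 gave 0.73 and leaving out PA replicate 1 gave -0.08. WT replicate 1 exceeded WT replicate 2 by 1.02 on the log2 scale for Amt and by 1.14 for Gldc, a distance of at least 2-fold that 5.23% of tested genes showed between these 2 mice. No other gene of the 10 reached a distance over 0.31 between the WT mice.

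The ratio of Gldc to Amt within a library was far steadier than the level of either gene. Reads on Gldc were 3.30 and 3.17 times those on Amt in PA livers, against 1.71 and 1.57 times in WT livers. The groups did not overlap, and the distance between them was large beside the distance between mice of 1 group. On the log2 scale the ratio averaged 1.69 ± 0.04 in PA and 0.71 ± 0.08 in WT (SD, n = 2 each), a difference of 0.98, or 1.97-fold. The pooled SD was 0.07, and the difference was 0.98 with RSEM expected counts and 0.97 in TPM. This was 1 of 5 ratios set for description, and with 2 mice per group a two-sided exact permutation test cannot give a p below 0.33, so no test was run.

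Gcsh (chromosome 8, 116981810 to 116993537, minus strand), the lipoylated carrier protein of the system, was at 72.2 and 92.9 CPM in PA livers, against 87.8 and 90.8 CPM in WT livers. The groups overlapped, with PA replicate 1 the lowest and PA replicate 2 the highest. The log2 fold change came to -0.11 ± 0.22 (SE; edgeR adjusted p = 0.895), and it was 0.06 without PA replicate 1. Gldc reads were 3.19 and 1.81 times Gcsh reads in PA livers, against 1.46 and 0.639 times in WT livers. These ratios did not overlap either, but they varied widely within each group, with a pooled SD of 0.72 around a log2 difference of 1.32.

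Dld (chromosome 12, 31331277 to 31351453, minus strand) encodes dihydrolipoamide dehydrogenase, which also serves the pyruvate, oxoglutarate, oxoadipate and branched-chain oxoacid dehydrogenase complexes. It was at 270 and 223 CPM in PA livers, against 205 and 206 CPM in WT livers. Both PA values lay above the WT values, which were nearly equal. The log2 fold change came to 0.26 ± 0.23 (SE; edgeR adjusted p = 0.722). In the deposited TPM the order was the other way round, with 99.2 and 100 TPM in PA livers, against 113 and 101 TPM in WT livers. The transcript length that RSEM assigned to Dld differed too, with effective lengths of 2225 and 2272 bases in PA, against 1962 and 2082 bases in WT, a mean 11.2% longer in PA. TPM divides by this length and is a share of all transcripts, the mitochondrially encoded ones included. How much each step moved the order was not tested.

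**Figure D2:**
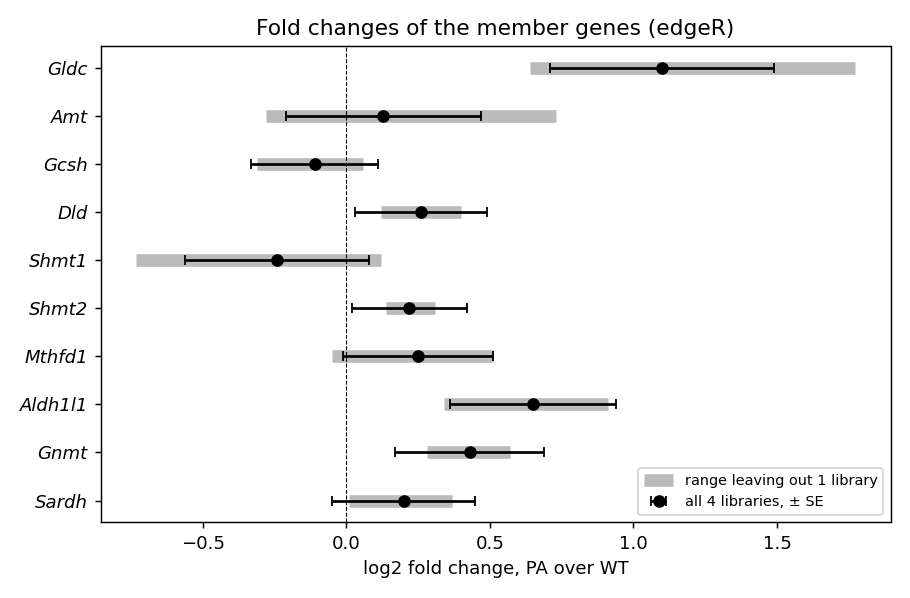
Log2 fold change of PA over WT for the 10 genes from edgeR (point, with its standard error) and the range of the 4 fits that each left out 1 library (grey). Gldc is highest at 1.10 with a range of 0.64 to 1.77, and the ranges of Amt, Gcsh, Shmt1 and Mthfd1 cross 0.

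Serine and glycine are interconverted by a mitochondrial and a cytosolic serine hydroxymethyltransferase, and neither gene passed the test. Shmt2, the mitochondrial form (chromosome 10, 127517123 to 127522444, minus strand), was at 109 and 122 CPM in PA livers, against 102 and 97.0 CPM in WT livers. Both PA values were the higher, by a small step. The fit put the log2 fold change at 0.22 ± 0.20 (SE; edgeR adjusted p = 0.743), within 0.14 to 0.31 when 1 library was left out.

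Shmt1, the cytosolic form (chromosome 11, 60788104 to 60811718, minus strand), was at 118 and 212 CPM in PA livers, against 174 and 216 CPM in WT livers. PA replicate 1 was lowest and the other PA mouse lay within the WT range. PA over WT gave a log2 fold change of -0.24 ± 0.32 (SE; edgeR adjusted p = 0.824), and leaving out PA replicate 2 gave -0.73 and leaving out PA replicate 1 gave 0.12. The effective length of Shmt1 in RSEM was 1898 and 1920 bases in PA, against 2080 and 2057 bases in WT. Reads on Shmt2 were 0.928 and 0.578 times those on Shmt1 in PA, against 0.585 and 0.449 times in WT, so the ratio overlapped between the groups. Among the 10 genes, effective length differed between group means by over 5% of WT only for Dld and Shmt1, a threshold chosen after the values were seen.

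The cytosolic folate enzymes were led by Aldh1l1, the dehydrogenase that oxidises formyltetrahydrofolate to carbon dioxide. Aldh1l1 (chromosome 6, 90486427 to 90600203, plus strand) was at 978 and 1444 CPM in PA livers, against 844 and 698 CPM in WT livers. Both PA values were above both WT values, and PA replicate 2 was far above the rest. The log2 fold change came to 0.65 ± 0.29 (SE; edgeR adjusted p = 0.457), or 1.57-fold, and leaving out PA replicate 2 gave 0.34 and leaving out PA replicate 1 gave 0.91. In TPM the groups overlapped, with 281 and 530 TPM in PA livers, against 329 and 255 TPM in WT livers.

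Mthfd1 encodes a cytosolic enzyme with 3 activities that interconvert methylene-, methenyl- and formyltetrahydrofolate and make the last from formate. Mthfd1 (chromosome 12, 76255298 to 76319803, plus strand) was at 148 and 217 CPM in PA livers, against 143 and 163 CPM in WT livers. PA replicate 1 lay within the WT range, so the groups overlapped. The fit put the log2 fold change at 0.25 ± 0.26 (SE; edgeR adjusted p = 0.772), and it was -0.05 without PA replicate 2.

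Gnmt, which methylates glycine to sarcosine and so uses up S-adenosylmethionine, was the most abundant of the 10. It lies on chromosome 17, 46725664 to 46729168, minus strand. Gnmt was at 1618 and 1318 CPM in PA livers, against 1069 and 1113 CPM in WT livers. Both PA livers were above both WT livers, as they were in TPM, at 1501 and 1544 TPM in PA and 1325 and 1303 TPM in WT. On the log2 scale the fold change was 0.43 ± 0.26 (SE; edgeR adjusted p = 0.588), or 1.35-fold, and it was 0.28 to 0.57 when 1 library was left out. Gldc and Gnmt were the 2 genes of the 10 whose PA livers lay above both WT livers on both scales.

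Sardh (chromosome 2, 27188393 to 27248337, minus strand), the mitochondrial sarcosine dehydrogenase that turns sarcosine back to glycine, was at 631 and 802 CPM in PA livers, against 602 and 646 CPM in WT livers. PA replicate 1 lay within the WT range and PA replicate 2 above it. The log2 fold change came to 0.20 ± 0.25 (SE; edgeR adjusted p = 0.821), and it was 0.01 without PA replicate 2. Gnmt reads were 2.57 and 1.64 times Sardh reads in PA, against 1.78 and 1.72 times in WT, which overlap. The 6 mitochondrial genes together held 0.483 and 0.458 times the reads of the 4 cytosolic genes in PA, against 0.538 and 0.518 times in WT. This ratio did not overlap between the groups and differed by -0.17 on the log2 scale, with a pooled SD of 0.05. The cytosolic sum was mostly Gnmt and Aldh1l1, and Sardh was the largest part of the mitochondrial sum, so the ratio leans on these genes.

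**Figure D3:**
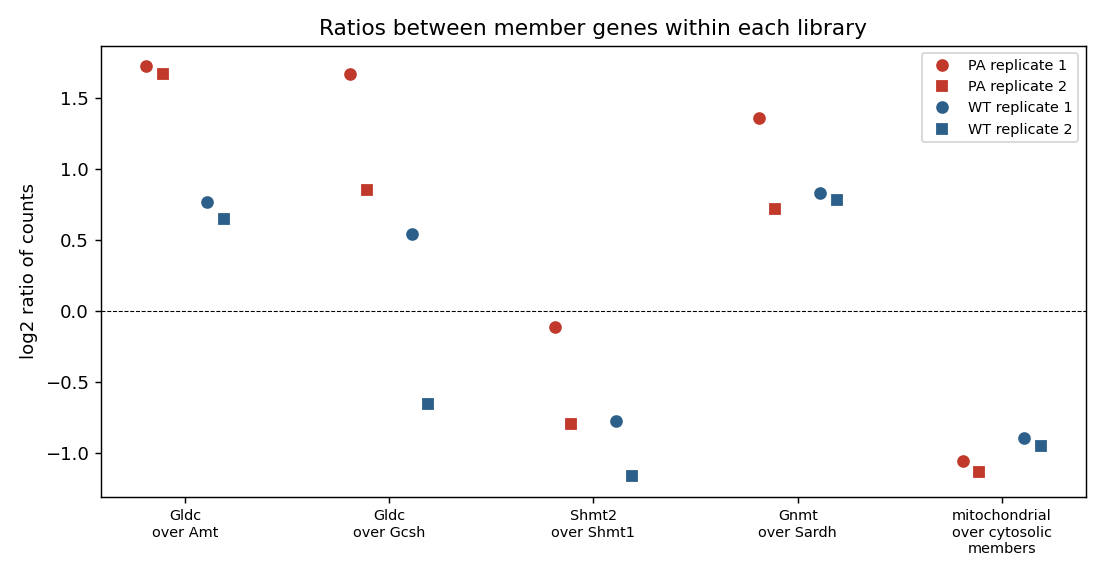
Log2 ratio of read counts between genes within each library (PA left in red, WT right in blue; circle, replicate 1; square, replicate 2). The ratio of Gldc to Amt was 1.72 and 1.67 in PA livers and 0.77 and 0.65 in WT livers, with little distance between mice of 1 group; the ratio of Gldc to Gcsh spread far more.

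Levels of different genes were compared in TPM, which divides by transcript length. In PA livers the order was Gnmt at 1523 TPM, Aldh1l1 at 406, Sardh at 250, Dld at 99.7, Shmt1 at 84.5, Gcsh at 62.3, Mthfd1 at 61.4, Shmt2 at 56.7, Gldc at 49.7 and Amt at 31.0 TPM. In WT livers it was Gnmt at 1314 TPM, Aldh1l1 at 292, Sardh at 240, Dld at 107, Shmt1 at 104, Gcsh at 77.2, Mthfd1 at 58.9, Shmt2 at 55.1, Amt at 33.4 and Gldc at 27.6 TPM. The order differed between the groups only in its last 2 places. In WT livers the TPM ranges of Dld and Shmt1, of Mthfd1 and Shmt2 and of Amt and Gldc overlapped, so their order there is not resolved. In PA livers Gldc lay above Amt in both mice, at 52.0 and 47.4 TPM against 32.5 and 29.6 TPM, while neighbours from Dld to Gldc overlapped, as did Aldh1l1 and Sardh. Gnmt made up 56.9% of the summed TPM of the 10 genes in WT livers and Gldc 1.19%.

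**Figure D4:**
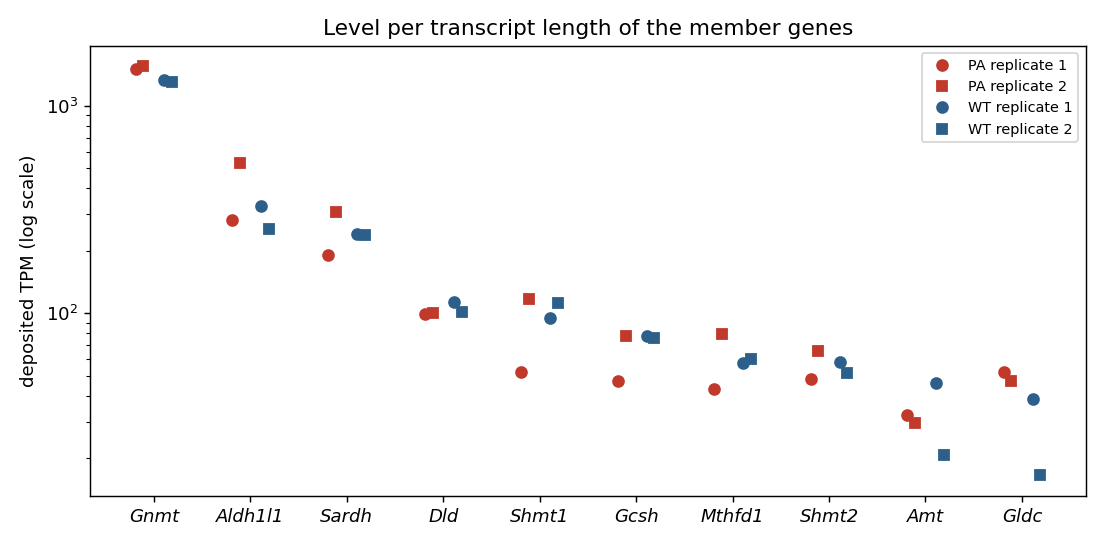
Deposited TPM of the 10 genes in each library on a log axis, ordered by the WT mean (PA left in red, WT right in blue). Gnmt lies above all others at 1303 TPM or more, and Gldc and Amt lie lowest in WT livers.

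Reads on the strand opposite to the gene's own transcript were few. They made up 1.41% of stranded counts at Amt, 0.342% at Shmt1 and less at the other 8 genes. Counting without regard to strand kept 88.3% of the stranded counts at Aldh1l1, 90.0% at Sardh and 96.4% at Shmt1, the 3 where it lost over 1%. These 3 overlap annotated genes on the opposite strand (Gm15756, Sardhos and Smcr8), but so do Gldc, Shmt2, Mthfd1 and Gnmt, which kept 99.8% or more. RSEM expected counts were 82.2 to 87.2% of STAR counts for all 10. Log2 fold changes from unstranded counts and from RSEM kept the sign of the stranded fit for every one of the 10 genes.

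The tested genes whose values over the 4 libraries were most like those of Gldc were found by the root mean square distance of centred log2 CPM. They were Large2, a glycosyltransferase gene, at a distance of 0.0638, Fam131c at 0.0649 and Ethe1, the mitochondrial sulfur dioxygenase, at 0.087. Ethe1 was at 68.5 and 55.4 CPM in PA livers, against 43.0 and 20.3 CPM in WT livers (log2 fold change 0.97 ± 0.35 SE, edgeR adjusted p = 0.334). It shared with Gldc both the higher PA livers and the low WT replicate 2. Large2 and Fam131c had low levels, at most 0.746 and 2.63 CPM. Among the other genes of the 10, Amt was the nearest to Gldc, at 0.492, and Shmt1 the farthest, at 1.01. A likeness over 4 libraries is a description of these mice.

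Other enzymes of folate one-carbon metabolism went both ways. Of 15 tested genes 7 had higher and 8 lower values in PA, with a median log2 fold change of -0.04. By edgeR 0 were called, 4 had an unadjusted p under 0.05 (1 higher and 3 lower), DESeq2 called 1 and limma-voom 0. The shares of all tested genes, for this list and those below, were 11.8% at an unadjusted p under 0.05, 3.07% by DESeq2 and 0.604% by limma-voom. Mthfd1l, the mitochondrial enzyme that releases formate for use in the cytosol, was at 4.0 and 4.17 CPM in PA livers, against 0.685 and 1.49 CPM in WT livers. The PA livers were nearly equal and well above both WT livers. PA over WT gave a log2 fold change of 1.92 ± 0.40 (SE; edgeR adjusted p = 0.105), it ranged from 1.44 without WT replicate 1 to 2.58 without WT replicate 2, and DESeq2 called it (adjusted p = 0.00455).

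Mthfsl, a gene named for its likeness to the methenyltetrahydrofolate synthetase Mthfs, was at 15.7 and 13.6 CPM in PA livers, against 20.7 and 24.2 CPM in WT livers, with a log2 fold change of -0.62 by edgeR (adjusted p = 0.293), and Mthfs itself at -0.53 (adjusted p = 0.413). Reads could be shared between these close relatives, which makes both values uncertain. Both genes had lower values in both PA livers than in both WT livers.

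Genes of folate transport and retention were measured in 6 of 7 cases; Folr1 was too low to test. By edgeR 0 of 6 were called, 2 had an unadjusted p under 0.05, and DESeq2 and limma-voom called 0. Slc19a1, the reduced folate carrier, was at 9.89 and 4.71 CPM in PA livers, against 2.58 and 3.77 CPM in WT livers (log2 fold change 1.20 ± 0.40 SE, edgeR adjusted p = 0.293; 0.58 without PA replicate 1). Folr2, a folate receptor carried by macrophages, was at 6.24 and 12.0 CPM in PA livers, against 19.9 and 18.3 CPM in WT livers (log2 fold change -1.06 ± 0.32 SE, edgeR adjusted p = 0.242). Both groups were apart for each gene, Slc19a1 with the higher and Folr2 with the lower PA values. The Kupffer cell markers given above were lower in PA as well, with 8 of 9 at lower values and 0 called by edgeR. An unadjusted p under 0.05 was reached by 5 of them, all lower, as by 5.93% of all tested genes. DESeq2 called 2 of the 9, against 3.07% of all tested genes, and limma-voom 0. The part of these markers in the Folr2 values was not tested. Ggh, which trims folate polyglutamates, stood at a log2 fold change of -0.56 by edgeR (adjusted p = 0.478).

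Of 14 tested genes of serine and glycine synthesis and of other routes of glycine use, 11 had higher values in PA and the median log2 fold change was 0.29. No gene of them was called by edgeR (0 of 14), 3 had an unadjusted p under 0.05 (2 higher and 1 lower), DESeq2 called 1 and limma-voom 0. Glyat, which conjugates glycine to acyl-CoA, was at 267 and 214 CPM in PA livers, against 435 and 443 CPM in WT livers. Both PA livers were far below the WT livers, which were nearly equal. The fit put the log2 fold change at -0.87 ± 0.24 (SE; edgeR adjusted p = 0.205), from -1.04 to -0.72 when 1 library was left out, and DESeq2 called it (adjusted p = 0.0259). Sdsl, a gene named for its likeness to serine dehydratase, was at 14.3 and 9.29 CPM in PA livers, against 6.42 and 4.56 CPM in WT livers (log2 fold change 1.10, edgeR adjusted p = 0.197). Agxt2, an aminotransferase that uses glyoxylate and yields glycine, stood at a log2 fold change of 0.58 by edgeR (adjusted p = 0.358). Phgdh, the first enzyme of serine synthesis, had 5 and 12 reads in PA and 5 and 5 in WT and was too low to test.

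The list drawn up around the route from choline to sarcosine, which feeds Sardh, held 9 tested genes. All had positive fold changes, with a median of 0.13. Besides Chdh, Aldh7a1, Bhmt and Dmgdh, the list holds Bhmt2, Pipox, Etfa, Etfb and Etfdh, which are not themselves steps from choline to sarcosine. Calls by edgeR numbered 0, 0 had an unadjusted p under 0.05, and DESeq2 and limma-voom called 0. Bhmt2, a betaine-homocysteine methyltransferase relative, had the largest log2 fold change of the list, 0.58 ± 0.25 SE (edgeR adjusted p = 0.425; 0.33 without PA replicate 2). Aldh7a1, which oxidises betaine aldehyde, had a log2 fold change of 0.30, and Dmgdh, which makes sarcosine from dimethylglycine, of 0.17 (edgeR adjusted p = 0.708 and 0.833).

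For lipoate, the cofactor of Gcsh, 9 genes of its synthesis and attachment and of steps around them were listed, iron-sulfur cluster assembly among them. Of these 9, 7 had higher values in PA (median 0.12). The test in edgeR called 0, 1 had an unadjusted p under 0.05, and DESeq2 and limma-voom called 0. That gene was Glrx5, a glutaredoxin of iron-sulfur cluster assembly, at 48.5 and 43.4 CPM in PA livers, against 25.4 and 33.8 CPM in WT livers (log2 fold change 0.64 ± 0.22 SE, edgeR adjusted p = 0.305). Lipt2, the octanoyl transferase that starts lipoate synthesis, had a log2 fold change of -0.40 and Iba57, an iron-sulfur assembly factor, of -0.18 (edgeR adjusted p = 0.604 and 0.838).

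Of 10 other subunits of the dehydrogenase complexes that share Dld, 8 had higher values in PA, with a median log2 fold change of 0.53. By edgeR 0 were called, 6 had an unadjusted p under 0.05, all 6 higher, as did 5.88% of all tested genes, DESeq2 called 1 and limma-voom 0. Dhtkd1, the first subunit of the oxoadipate complex of lysine breakdown, was at 51.9 and 44.6 CPM in PA livers, against 18.4 and 25.0 CPM in WT livers. The groups were apart by about the distance seen for Gldc, with less spread between mice. The log2 fold change came to 1.16 ± 0.23 (SE; edgeR adjusted p = 0.0894; DESeq2 adjusted p = 0.00363), from 0.94 to 1.40 when 1 library was left out.

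Dbt, a core subunit of the branched-chain oxoacid complex, was at 85.3 and 150 CPM in PA livers, against 60.1 and 69.9 CPM in WT livers (log2 fold change 0.85, edgeR adjusted p = 0.311; 0.39 without PA replicate 2). Dlat, the core subunit of pyruvate dehydrogenase, was at 58.7 and 57.9 CPM in PA livers, against 34.5 and 41.4 CPM in WT livers (log2 fold change 0.62 ± 0.20 SE, edgeR adjusted p = 0.27). For both genes the PA livers were above the WT livers.

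In the methionine cycle, which supplies the methyl groups that Gnmt uses, 8 of 12 tested genes had higher values in PA (median 0.30). EdgeR called 0, 1 had an unadjusted p under 0.05, and DESeq2 and limma-voom called 0. Mat1a, the liver enzyme that makes S-adenosylmethionine, was at 5012 and 4930 CPM in PA livers, against 2686 and 3166 CPM in WT livers. The PA livers were close together and above both WT livers. PA over WT gave a log2 fold change of 0.76 ± 0.28 (SE; edgeR adjusted p = 0.338). Ahcy, which clears the S-adenosylhomocysteine that Gnmt produces, was at 1519 and 1427 CPM in PA livers, against 952 and 1154 CPM in WT livers (log2 fold change 0.48, edgeR adjusted p = 0.537). Mat1a, Gnmt and Ahcy thus each had both PA livers above both WT livers, as did 21.3% of all tested genes. Of the 12 genes of the list, 5 had both PA livers above both WT livers and 1 had both below. Nnmt, which methylates nicotinamide, stood at a log2 fold change of -0.43 by edgeR (adjusted p = 0.478).

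**Figure D5:**
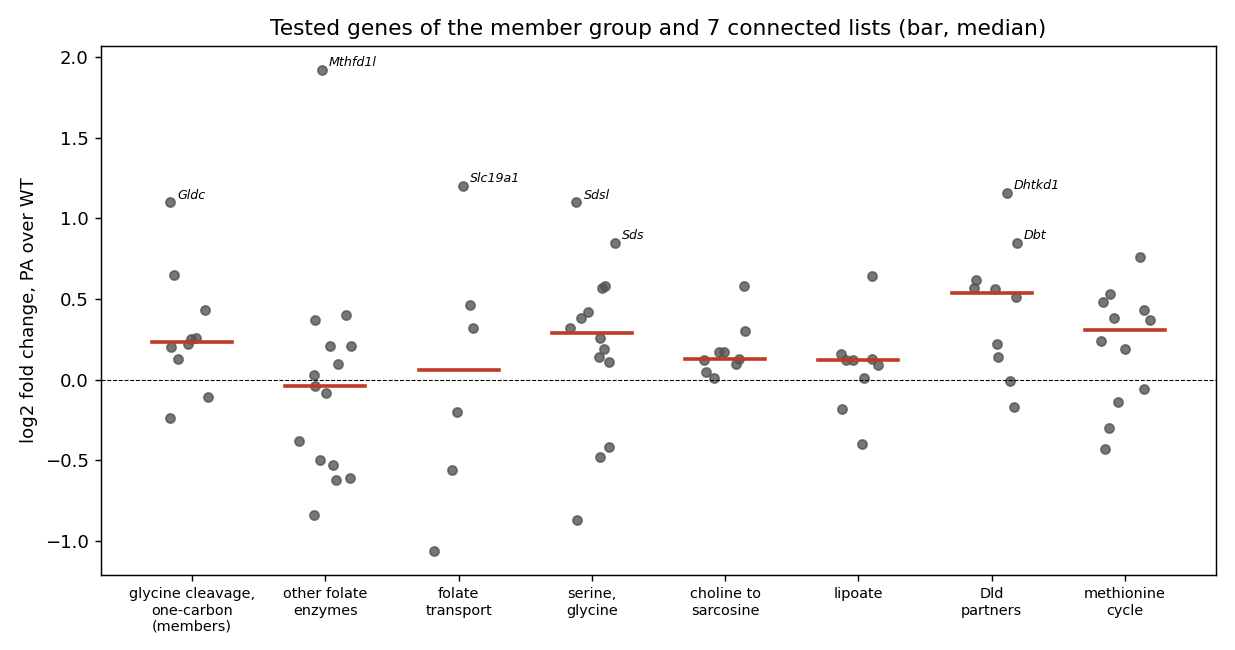
Log2 fold change of PA over WT for the tested genes of the 10-gene group and of 7 connected lists (points, genes; red bar, median; genes at 0.8 or higher are named). Mthfd1l is highest at 1.92, Gldc stands alone above 1 in its group, and the partners of Dld have the highest median at 0.53.

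Markers of hepatocyte zones were read beside these values. Of 10 periportal markers 8 had higher values in PA, with a median log2 fold change of 0.61, and they summed to 10645 and 12707 CPM in PA livers, against 8063 and 6596 CPM in WT livers. Of these, edgeR called 0, and 4 had an unadjusted p under 0.05, all higher, as did 5.88% of all tested genes. DESeq2 called 4 of the 10, against 3.07% of all tested genes, and limma-voom 0. The most abundant of the 10 markers, Cps1, which starts the urea cycle, was at 4134 and 6703 CPM in PA livers, against 2597 and 2548 CPM in WT livers. Ass1, a later urea cycle enzyme, was at 2729 and 2941 CPM in PA livers, against 1790 and 1148 CPM in WT livers. Pericentral markers had a median of -0.04 and summed to 6946 and 8508 CPM in PA livers, against 7650 and 9076 CPM in WT livers, with overlap; Cyp2e1 and Rgn had log2 fold changes of 0.24 and -0.62 (edgeR adjusted p = 0.843 and 0.426). The part of zonal differences in the values of the 10 genes was not tested.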

How the data were processed

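PolyA RNA of 4 livers, 2 PA and 2 WT, was read from the deposited tables. The read counts per gene were made by the authors with STAR 2.7.6a, and the expected counts, TPM and FPKM values with RSEM 1.3.3 (per the file headers and the submitters' processing notes, which name GRCm38). The authors' annotation release was not given in these sources. The authors' TPM and FPKM values are scaled within each library. TPM was used for levels between genes, and FPKM was not used. The effective transcript length beside them was used as deposited.

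The opposite-strand count column, which held 96.96 to 97.08% of stranded counts, was the main count (rule: over 80% in every library). The 4 summary lines, 28.1 to 34.3% of reads, were left out. Symbols came from GENCODE M21, which matched 55227 of 55487 identifiers. PA was tested against WT with edgeR 4.0.16 in R 4.3.3 (quasi-likelihood test, TMM, filterByExpr, prior count 0.125, genotype only), adjusted by Benjamini-Hochberg over 14411 genes at 0.05. DESeq2 1.42.0, limma-voom 3.58.1, other scalings, filters and counts (expected counts rounded), a replicate block and leaving out 1 library were alternatives. A standard error (SE) is the log2 fold change over the root of its F statistic. The fit was tested on simulated counts with known changes. It recovered 28.1% of the changed genes at a true log2 fold change of 1 and 86.6% at 2, and 4.42% of calls were false. Total counts put 3 reads at 0.0996 to 0.117 CPM. Libraries of a group differed beyond sampling noise (chi-square per degree of freedom 135 for PA, 46.3 for WT). Replicates are called biological in the series' design text.

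The 10 genes and all lists were chosen with earlier results of these data known. Named by rule were the 3 genes of smallest p in each connected list, the 2 most abundant in each marker list and the 3 nearest to Gldc; 1 of the genes so named is not reported here, and Mthfs, Folr1 and Phgdh were added after their values were seen.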

Additional observations from a re-analysis of the deposited data

How the results depend on the processing

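Of 100 fold changes of the 10 genes under other settings with all 4 libraries, 0 reversed and 1 was newly called, Gldc with no filter on low counts, so 1 gene of the 10 was called higher there. Of 40 values with 1 library left out, 5 reversed, in 4 genes: Amt (-0.28 without WT replicate 2, -0.08 without PA replicate 1, highest 0.73), Gcsh (0.06 without PA replicate 1, lowest -0.31), Shmt1 (0.12 without PA replicate 1, lowest -0.73) and Mthfd1 (-0.05 without PA replicate 2, highest 0.51). Levels in TPM reversed the log2 ratio of group means for Amt (-0.11) and Dld (-0.10). The log2 ratio of Gnmt to Sardh differed between the groups by -0.09 to 0.55 when 1 library was left out.

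Over all genes, 38 were called higher and 79 lower in PA; these were 414 and 488 with no filter, 186 and 256 with DESeq2, and 50 to 239 and 105 to 261 with 1 library left out. Genes called in the 7 connected lists numbered 0, but 8 with no filter, 3 with DESeq2 and 0 to 5 with 1 library left out. The replicate number as a block gave 126 higher and 192 lower calls and 2 in the connected lists (Mthfd1l and Dhtkd1). Same-numbered libraries did not deviate together (correlation -0.0907 across genes), so the samples share only a number. Among the 2 most abundant genes of each marker list, values reversed with 1 library left out for Cyp2e1 (range -0.05 to 0.59) and Ecm1 (a stellate cell marker, -0.13 to 0.38). They also reversed for mt-Cytb (lowest -0.21) and Alb (-0.22 to 0.08, among them 0.05). The pancreas marker Cela2a, at 1.0-fold in the main fit, changed sign in unstranded counts and without mitochondrially encoded genes (0.01) and with DESeq2 (0.02). With 1 library left out, Cela2a ranged from -1.12 to 0.66, among them 0.04. Less abundant marker genes reversed too, such as Glul (0.12 without PA replicate 1). The causes were not tested. Where a library was left out, the lone mouse of its group was assumed to vary like the other group. The unstranded and left-out-library values of the ratios were added after the data were seen.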

Other observations

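Markers of the other cell types a liver sample could hold, and of early RNA responses to handling, were measured beside the enzymes. Sinusoidal endothelial markers summed to 252 and 270 CPM in PA livers, against 334 and 309 CPM in WT livers, with 6 of 8 at lower values. Stellate cell markers summed to 454 and 443 CPM in PA livers, against 423 and 437 CPM in WT livers, although 6 of 8 had lower values. Bile duct markers summed to 29.8 and 32.6 CPM in PA livers, against 34.3 and 48.3 CPM in WT livers, while 4 of 5 tested genes had higher values. B and T cell markers summed to 2.94 and 3.74 CPM in PA livers, against 5.97 and 6.75 CPM in WT livers, with 5 of 5 tested at lower values. Exocrine pancreas markers summed to 12.1 and 7.94 CPM in PA livers, against 29.7 and 17.2 CPM in WT livers, with 2 of 7 high enough to test. Nearly all of the sum was Cela1, at 11.4 and 7.74 CPM in PA livers, against 29.2 and 16.8 CPM in WT livers. The other tested marker, Cela2a, was at 0.707 and 0.202 CPM in PA livers, against 0.456 and 0.432 CPM in WT livers. The groups overlapped (1.0-fold by edgeR), on only 18 and 6 reads in PA and 14 and 11 in WT. In these 5 lists edgeR called 0 genes. Of 14 tested immediate early genes, which respond within minutes to stimulation or handling, 13 had higher values in PA and 0 were called by edgeR. An unadjusted p under 0.05 was reached by 4 of them, all higher, as by 5.88% of all tested genes. Immediate early genes summed to 201 and 133 CPM in PA livers, against 120 and 91.4 CPM in WT livers. All 13 mitochondrially encoded genes had positive fold changes, with a median of 1.11 on the log2 scale. EdgeR called 1 of the 13, higher in PA, against 0.264% of all tested genes. An unadjusted p under 0.05 was reached by 9, all higher, against 5.88% of all tested genes. DESeq2 called 7 and limma-voom 1, against 3.07% and 0.604% of all tested genes. Both PA libraries lay above both WT libraries for 10, against 21.3% of all tested genes. Hbb-bs, a beta globin gene of red blood cells, fell by 2.83 on the log2 scale (edgeR adjusted p = 0.0256).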
